A study of Mus musculus with 4 samples.

Results

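Noncoding RNAs and the ribosomal RNA precursor were examined in lung T helper 2 (Th2) cells of C57BL/6 mice treated chronically with papain, a protease from papaya used to set off airway allergy. The members are all genes of the deposited table whose symbol begins with Mir and a digit, Snor or Snhg, together with Rn45s, Malat1, Neat1, Gas5, Rmrp, Rpph1, Rn7sk and Terc; 26 of the 11883 listed genes met this rule, and Rmrp, Rn7sk and Terc were not analysed here. The comparison is between 2 genotypes with 2 samples each. In the first, Gata3(fl/fl), called control below, both Gata3 alleles carry sites for Cre recombinase. In the second, Klrg1Cre Gata3(fl/fl), called Klrg1Cre below, a Cre named for the receptor gene Klrg1 is added. Floxed Gata3 and papain were thus common to both groups, and no group carried the Cre without floxed Gata3. Live CD4+ cells bearing T1/ST2, the receptor for interleukin-33, were sorted from digested lungs, and total RNA was sequenced. The table heads its groups WT and ILC2 deficient (group 2 innate lymphoid cells), and these headings were read as control and Klrg1Cre, a link that the labels leave unstated. Whether each sample is a separate mouse is not stated, and the p-values thus measure the spread between these samples only, which may be technical. In bulk RNA, fewer cells of a type and less RNA per cell cannot be told apart.

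These RNAs act without being translated. RNA polymerase I makes a long precursor that is cut and chemically modified in the nucleolus into the RNAs of both ribosomal subunits. The Rn45s row is named for this precursor. Reads of the precursor and of the RNAs cut from it cannot be told apart in that row. Small nucleolar RNAs (snoRNAs) guide that modification and cutting, and most of them are released from introns of host genes whose spliced exons have little coding capacity. MicroRNAs are cut from hairpins in longer host transcripts and repress messenger RNAs that pair with their seed, and the long noncoding RNAs Malat1 and Neat1 stay in nuclear speckles and paraspeckles.

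Both snoRNAs of the set are of the box C/D kind, named for the motifs that their core proteins bind, and both act on the ribosomal RNA precursor. Snord118, also called U8, is needed to release the large-subunit RNAs, and Snord13 takes part in a modification of the small-subunit RNA. Snord118 is shown because it had the smallest p-value of the members with lower means in Klrg1Cre. The sequence is that of a GENCODE M21 transcript on build GRCm38, which is not the mm9 build used by the authors. Capitals mark the first TGATGA, the letters of box C, and the last CTGA, the letters of box D. Snord118 lies at chr11:69073427-69073561 on the plus strand.
Snord118: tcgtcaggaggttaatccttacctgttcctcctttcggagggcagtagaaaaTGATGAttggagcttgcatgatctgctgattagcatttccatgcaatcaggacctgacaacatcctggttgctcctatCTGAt
Box D lay 1 base from the 3′ end. Reading the transcribed strand only, TGATGA with a CTGA starting in the last 12 bases occurred in 68 of 98 Snord transcripts of the annotation (69.4%) and in 0 of 42 Snora transcripts, whose box H/ACA family uses other motifs.

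In the set, 6 rows bear microRNA names. Mir155hg and Mir22hg are host transcripts, and Mir6236, Mir682, Mir8112 and Mir8114 are hairpin rows. RefSeq on GRCm38.p6 held 8 mature microRNAs for these 6 rows, with 8 different seeds. Below are the mature forms of the hairpin rows and the arm of each host that is usually the more abundant one, with the seed (bases 2 to 8) in capitals.
mmu-miR-155-5p: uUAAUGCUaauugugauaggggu
mmu-miR-22-3p: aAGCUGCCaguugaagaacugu
mmu-miR-6236: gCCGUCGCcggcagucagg
mmu-miR-682: cUGCAGUCacagugaagucug
mmu-miR-8112: uCUCCGCCaccuccaccgca
mmu-miR-8114: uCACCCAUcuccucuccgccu
The rows count fragments of longer transcripts from a total RNA library and are no measure of mature microRNAs, which are too short for it.

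The deposited values are group means in CPM, reads scaled to a common library total. Values for single libraries were worked out where a mean could be written in just 1 way as whole reads of both libraries of its group. The library totals found in this way were, for Klrg1Cre, 26019065 in the larger library and 14564426 in the smaller, and for control 33379572 and 31961572; which sample each library is remains unknown. Apart from Rn45s, 19 of 25 members were resolved in all 4 libraries. Of the sorted cells' markers, 7 T cell genes summed to 888.1 (Klrg1Cre) and 892.5 CPM (control), with Cd4 at 167.6 and 150.1 CPM. The 7 genes shared by Th2 cells and ILC2 summed to 562.8 and 526.1 CPM, and 3 of them were higher in Klrg1Cre with an unadjusted p below 0.05 in the authors' deposited table, against 3.72% of all genes. These were Il13 (12.4 and 6.33 CPM, p = 0.00111 in the authors' table), Il5 (12.4 and 5.08 CPM, p = 0.00173 there) and Gata3, the floxed gene (293.9 and 221.4 CPM, p = 0.0115 there). The other 4 had lower means, among them Ccr8 (76.7 and 97.6 CPM), and the median log2 ratio of the 7 was -0.17. A count over the whole of Gata3 does not measure the deleted part. Macrophage and monocyte markers (8 of 8 listed) summed to 1608 CPM and 2376 CPM. Chil3 alone (1124 and 1932 CPM, p = 0.0165 in the authors' table) set the direction of that sum. Lyz2, the next most abundant, was at 395.9 and 364.0 CPM, and 3 of the 8 had higher means in Klrg1Cre. For 1 of these 3 the log2 ratio was 11.57, from a control mean near 0. Of the 8, 1 was lower and 0 higher at an unadjusted p below 0.05, against 3.37% and 3.72% of all genes. The 4 B cell markers summed to 1.72 and 3.18 CPM. Granulocyte markers (3 listed) summed to 7.26 and 4.18 CPM, and epithelial and endothelial markers (4 listed) to 26.9 and 20.6 CPM. Among the latter, Epcam was at 0.921 and 2.78 CPM, Pecam1 at 17.7 and 12.1 CPM and Scgb1a1 at 4.23 and 2.57 CPM. Each had an unadjusted p below 0.05 in the authors' table. These were 2 higher and 1 lower of the 4 markers, against 3.72% and 3.37% of all genes. No marker passed the adjusted p. The part of macrophage RNA or of other cells' RNA in the results on the members was not tested.

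Rn45s had deposited means of 671470 CPM (Klrg1Cre) and 513769 CPM (control), or 67.1% and 51.4% of the reads, a ratio of 1.31 with p = 0.709 and adjusted p = 0.954 in the authors' deposited table. The whole reads behind these means were unusual. In Klrg1Cre, 1 split into whole reads was found within 1e-08 reads, with 16777216 reads in the larger library and 10167950 in the smaller. In control, 3 splits fitted inside the library totals, because the totals share a factor, and in 1 of them both libraries held 16777216 reads. Each of the other splits put 1 control library at more reads than that (24767609 or 25122109). The number 16777216 is 2 to the power 24, the value at which a counter kept in single precision can no longer add 1. With the equal split, 3 libraries of 26019065 to 33379572 reads carried exactly this number of Rn45s reads, and the fourth, the smallest, lay below it.

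The Rn45s entries of these 3 libraries were therefore read as lower limits and not as levels. They amount to 64.5% of the larger Klrg1Cre library and to 50.3% and 52.5% of the larger and smaller control libraries. In the smaller Klrg1Cre library the count of 10167950 reads was 69.8% of the total (exact binomial 95% interval 69.79% to 69.84%, counting error only). The other listed genes took nearly the same share of every library: 18.1% and 18.2% in the larger and smaller Klrg1Cre library and 17.8% and 17.9% in the control libraries, with unresolved genes entered at their group mean. Reads outside the listed genes made up 11.997% of the smaller Klrg1Cre library, 17.4% of the larger, 29.7% of the smaller control library and 31.9% of the larger. This order is that of the library totals.

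If all reads outside the listed genes came from Rn45s in the libraries at 16777216 reads, the group means would lie at 75.8% in Klrg1Cre and 82.2% in control. The possible ranges are then 67.1% to 75.8% for Klrg1Cre and 51.4% to 82.2% for control, and they overlap. On the log2 scale the deposited difference was 0.39, while the limits allow from -0.29 to 0.56. The direction of the Rn45s difference between genotypes could not be determined from these values. The CPM of the other genes rest on library totals that exceed the repeated number in those 3 libraries, so they are not bounded by it.

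**Figure D1:**
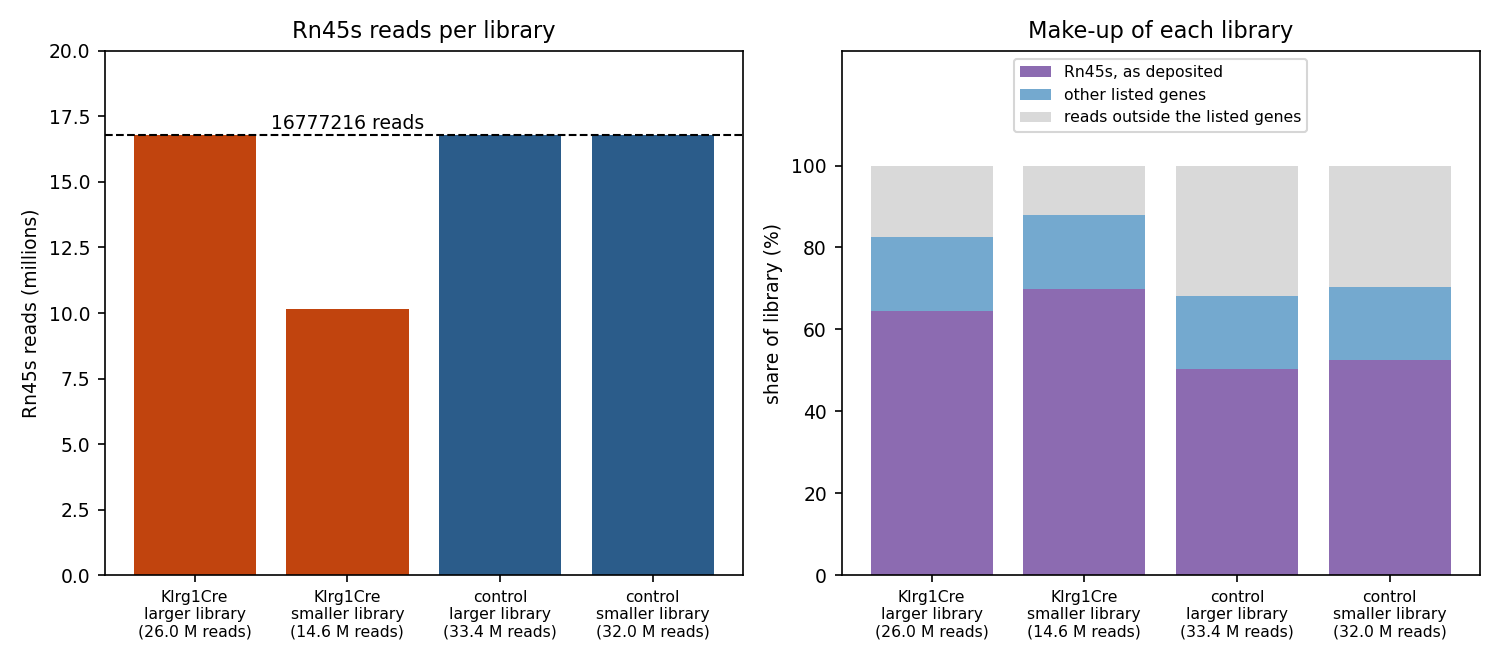
Left, Rn45s reads for each of the 4 libraries, with a dashed line at 16777216 reads; right, the share of each library in percent taken by Rn45s, by the other listed genes and by reads outside the listed genes. For control the split with equal reads is drawn. Of the 4 bars on the left, 3 end exactly on the line, and only the library with 14564426 reads in total lies below it.

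The other 25 members were compared through the p-values of the authors' deposited table. None of the 26 members passed an adjusted p of 0.05, where 0.0589% of all listed genes did (7 of 11883). At an unadjusted p below 0.05 there were 3 members (11.5%) against 7.09% of all genes. Of these, 2 had higher means in Klrg1Cre, against 3.72% of all genes, and 1 had a lower mean, against 3.37%. The median log2 ratio was 0.06 over the 26 members, 0.00 over the 25 without Rn45s and 0.01 over all genes. Of these 25 members, 13 had higher and 12 lower means in Klrg1Cre. Among the 19 members resolved by library, 3 had both Klrg1Cre libraries above both control libraries (background 19.3%) and 4 had both below (background 18.3%), together 36.8% against 37.6% of the 5351 resolved genes. These shares are close to the background. In limma on log2(CPM + 1) no resolved member passed an adjusted p of 0.05, where 0.224% of the resolved genes did, and 2 members, Mir155hg and Snord118, had an unadjusted p below 0.05, against 7.79%. Scaling to the reads outside Rn45s instead of the whole library would raise every log2 ratio by 0.57, the median of all genes included, but that divisor contains the Rn45s entries read as limits. Under it 4 members passed the adjusted p in limma, against 28.2% of the resolved genes, and 7 an unadjusted p of 0.05, against 44.8%.

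**Figure D2:**
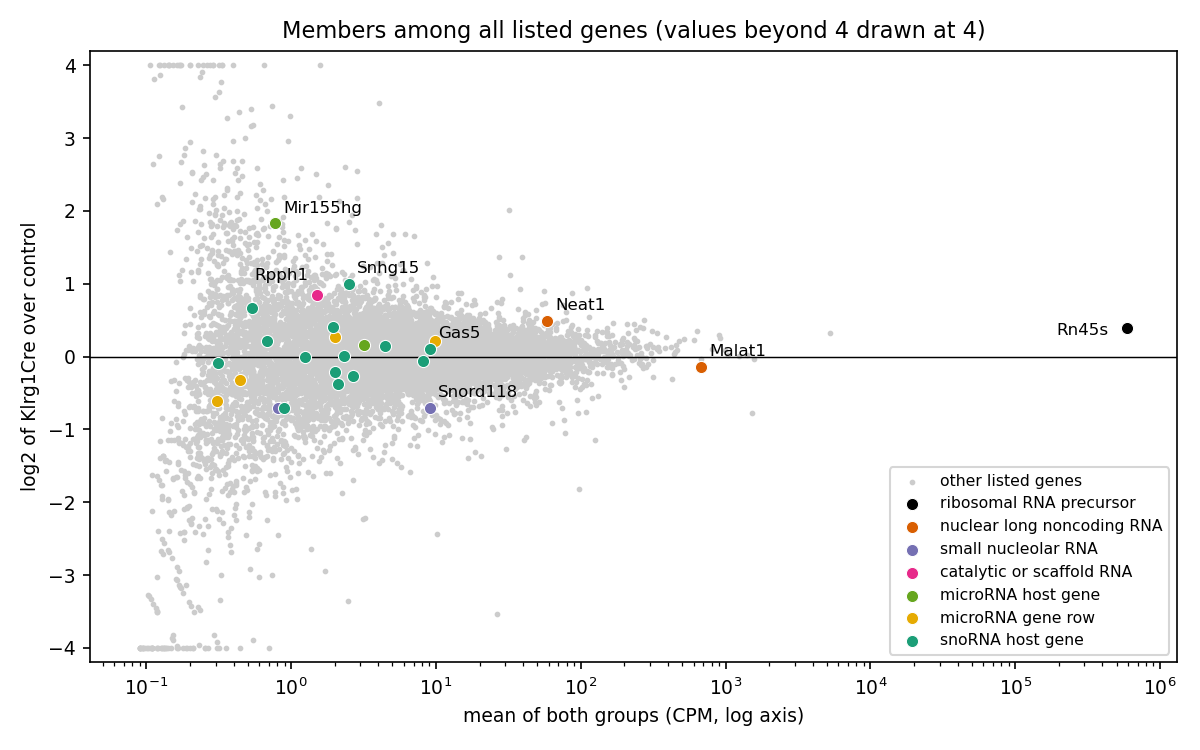
Log2 ratio of Klrg1Cre over control against the mean of both groups in CPM (log axis) for the 26 members, coloured by class, and for all other listed genes in grey. The members lie inside the cloud of genes of similar level, from -0.71 for Snhg1 to 1.83 for Mir155hg, apart from Rn45s at the right.

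Of the nuclear long noncoding RNAs, Neat1, the scaffold of paraspeckles, had the smallest p-value of all members. Its deposited mean was 68.6 CPM in Klrg1Cre against 48.7 CPM in control, a ratio of 1.41 (the authors' p = 0.00454, adjusted p = 0.412). The Neat1 means could not be resolved into whole reads, so the spread of its libraries is not shown here. Malat1, an abundant transcript of nuclear speckles, held 678.3 and 612.0 CPM in the larger and smaller Klrg1Cre library against 682.0 and 736.4 CPM in control. Both Klrg1Cre libraries lay below both control libraries, though the larger libraries of the groups nearly met. The deposited ratio of Malat1 was 0.91 (the authors' p = 0.329, adjusted p = 0.840), and limma on log2(CPM + 1) put the difference at -0.14 (95% interval -0.43 to 0.15).

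Snord118, the box C/D RNA printed above, held 174 and 103 reads in the larger and smaller Klrg1Cre library and 421 and 313 reads in control. In CPM these were 6.69 and 7.07 against 12.6 and 9.79. The groups did not overlap, and the counting intervals of the Klrg1Cre libraries (exact Poisson 95%, 5.73 to 7.76 and 5.77 to 8.58 CPM) lay below those of the control libraries (11.4 to 13.9 and 8.74 to 10.9 CPM). The deposited means were 6.88 and 11.2 CPM, 1.63-fold lower in Klrg1Cre (the authors' p = 0.00996, adjusted p = 0.551). The limma difference for Snord118 on log2(CPM + 1) was -0.62 ± 0.20 (SE) with an adjusted p of 0.357, and without the larger control library its unadjusted p was no longer below 0.05, in a fit that takes the spread from the Klrg1Cre pair and the trend over genes, and assumes that the lone control library varies likewise.

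Snord13 was counted by few reads, 9 and 13 in Klrg1Cre and 39 and 27 in control. Its levels were 0.346 and 0.893 CPM in the larger and smaller Klrg1Cre library against 1.17 and 0.845 CPM in control, and the groups overlapped. The deposited means of Snord13 were 0.619 and 1.007 CPM, 1.63-fold lower in Klrg1Cre, with an adjusted p of 0.816 in the authors' table. Both snoRNAs thus had lower means in Klrg1Cre by nearly the same ratio, but only the libraries of Snord118 were apart. When single libraries were left out, the log2 ratio ran from -1.54 to -0.17 for Snord13 and from -0.87 to -0.51 for Snord118. The likeness of the 2 ratios is thus loose.

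Rpph1, the RNA subunit of ribonuclease P, which trims the 5′ ends of transfer RNA precursors, held 34 and 37 reads in Klrg1Cre and 40 and 30 in control. These were 1.31 and 2.54 CPM against 1.20 and 0.939 CPM. The smaller Klrg1Cre library stood well above the other 3, which lay close together. The deposited ratio of Rpph1 was 1.80 (the authors' p = 0.146, adjusted p = 0.769), a log2 ratio of 0.85 that became 0.29 if the smaller Klrg1Cre library was left out and 1.25 if the larger was.

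Mir155hg, the host of miR-155, a microRNA induced when lymphocytes are activated, had the largest log2 ratio of the members. It held 29 and 19 reads in the larger and smaller Klrg1Cre library and 7 and 15 reads in control, or 1.11 and 1.30 CPM against 0.210 and 0.469 CPM. The groups did not overlap. The deposited means were 1.21 and 0.340 CPM, 3.56-fold higher in Klrg1Cre (the authors' p = 0.0199, adjusted p = 0.610). On these reads the counting intervals were wide, 0.746 to 1.60 and 0.785 to 2.04 CPM in Klrg1Cre against 0.0843 to 0.432 and 0.263 to 0.774 CPM in control. The lower end in the larger Klrg1Cre library thus reached below the upper end in the smaller control library. The log2 ratio of Mir155hg was 1.83, with 1.37 to 2.53 when single libraries were left out. On log2(CPM + 1), a scale that understates the change of low genes, limma put the Mir155hg difference at 0.73 ± 0.25 (SE) with an adjusted p of 0.415, and in the fit without the larger control library, with the same assumption on the lone one, its unadjusted p was not below 0.05. These values are of the host transcript and not of mature miR-155.

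Mir22hg, the host of miR-22, showed no such separation. Its larger and smaller library held 4.04 and 2.68 CPM in Klrg1Cre against 2.28 and 3.75 CPM in control. The libraries of the groups interleaved, and the deposited ratio was 1.11 (the authors' adjusted p = 0.944). The limma interval of its difference ran from -0.46 to 0.71 on the log2(CPM + 1) scale.

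Of the 4 hairpin rows, Mir682, Mir8112 and Mir8114 share sequence with a listed protein-coding gene and could not be resolved into whole reads. Mir6236 was not searched for shared sequence. The Mir682 hairpin at chr13:75645046-75645141 (GRCm38.p6, plus strand) is printed because 48 of its 96 bases, in capitals, are an unbroken stretch of the messenger RNA of Rpl37a, a protein of the large ribosomal subunit.
Mir682: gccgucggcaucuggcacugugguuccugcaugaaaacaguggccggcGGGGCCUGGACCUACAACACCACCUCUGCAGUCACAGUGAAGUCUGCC
The mature microRNA printed above lies inside this stretch. Mir8114 overlaps an exon of Glul, the gene of glutamine synthetase, by 93 of 111 bases, and Mir8112 overlaps an exon of Krcc1 by 125 of 131 bases. Reads from such stretches could be assigned to either gene, so the values of these rows are uncertain.

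Mir682 had deposited means of 2.17 CPM (Klrg1Cre) and 1.81 CPM (control), and Rpl37a 74.3 and 72.6 CPM. For Mir8114 they were 0.244 and 0.371 CPM, and for Glul 30.7 and 35.2 CPM. For Mir8112 they were 0.396 and 0.494 CPM, and for Krcc1 4.18 and 6.34 CPM. In each pair the microRNA row and the coding gene lay on the same side, and none of the 6 had a p in the authors' table below 0.05.

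Mir6236 was the hairpin row that could be resolved into reads. It held 10.7 and 10.3 CPM in the larger and smaller Klrg1Cre library against 7.88 and 10.3 CPM in control, from 150 to 328 reads. Only the larger control library was low, and the deposited ratio was 1.16 (the authors' p = 0.314, adjusted p = 0.839). The log2 ratio of Mir6236 was 0.21, and 0.03 without the larger control library.

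The snoRNA host genes were the largest class, with 13 Snhg genes and Gas5. In the RefSeq annotation 13 of the 14 hold at least 1 snoRNA, 8 in Gas5 and 8 in Snhg1. Many such genes are known to begin with a pyrimidine tract, the start that also marks genes of ribosomal proteins and links their translation to growth signals. RefSeq promoters matched 15 of the 26 members, 12 of them snoRNA host genes. The letters CTTT or CTCT, read on the transcribed strand and starting within 5 bases of an annotated start, were found in 5 of the 12 host genes (41.7%) and in 12.7% of all 27025 genes with a promoter. On the opposite strand the figures were 0 of 12 and 13.8%. The window and both motifs, which share the letters CT, were chosen after the starts had been seen. A match is a description and not a site. The clearest starts are printed with 20 bases before and 10 after the start and the motif in capitals, from GRCm38.p6 at chr1:161035146-161035175 (plus strand), chr2:26640235-26640264 (minus strand) and chr3:123508327-123508356 (minus strand).
Gas5: gactcagccgccatctcagcCTTTcggagc
Snhg7: gtggcgtggagatgctcggcCTCTcggcag
Snhg8: tgcgcgcaccgttcagaagtCTCTTTggct

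These genes showed no common direction. Of the 14 host genes, 7 had higher and 7 lower means in Klrg1Cre, the median log2 ratio was 0.00, and none had a p in the authors' table below 0.05, the smallest being 0.0957 for Snhg15. Gas5, which accumulates when growth stops, was deposited at 9.41 CPM for Klrg1Cre and 8.72 CPM for control, a ratio of 1.08 (the authors' adjusted p = 0.930). Its means could not be resolved into reads.

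Snhg15 had the largest ratio of the class. It held 1.92 and 4.74 CPM in the larger and smaller Klrg1Cre library, from 50 and 69 reads, against 1.95 and 1.38 CPM in control. The deposited ratio of 2.00 (the authors' adjusted p = 0.741) came from the smaller Klrg1Cre library, since the larger one lay inside the control range. With the larger Klrg1Cre library alone, Snhg15 had a log2 ratio of 0.21 in place of 1.00.

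Snhg1 and Snhg16 were the host genes whose groups did not overlap, 2 of 12 resolved hosts where 37.6% of all resolved genes did not overlap and 18.3% had both Klrg1Cre libraries below. Snhg1 held 0.807 and 0.549 CPM in the larger and smaller Klrg1Cre library against 0.839 and 1.38 CPM in control. The larger libraries of both groups nearly met, and the deposited means were 1.63-fold lower in Klrg1Cre (the authors' adjusted p = 0.825). Snhg16 held 1.73 and 1.92 CPM against 2.43 and 2.32 CPM, 1.30-fold lower (the authors' adjusted p = 0.839). For both, the limma interval included 0, from -0.88 to 0.23 for Snhg1 and from -0.79 to 0.28 for Snhg16 on the log2(CPM + 1) scale.

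Several hosts had 1 library apart from the rest. Snhg8 held 3.69 and 5.70 CPM in the larger and smaller Klrg1Cre library against 3.86 and 4.60 CPM in control. Snhg6 held 2.00 and 1.72 CPM in Klrg1Cre against 1.29 and 3.004 CPM in control, so that its 2 control libraries enclosed both Klrg1Cre libraries. Snhg10 had 14 reads in the larger Klrg1Cre library but 1 read in the smaller (0.0687 CPM, exact Poisson 95% interval 0.00174 to 0.383 CPM), against 10 and 11 reads in control.

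For the remaining hosts the libraries of the groups overlapped where both were resolved. Snhg20 held 7.19 and 8.86 CPM in Klrg1Cre against 7.79 and 8.89 CPM in control, with a deposited ratio of 0.96. Snhg5 held 2.54 and 2.33 CPM against 2.46 and 3.38 CPM, and Snhg3 1.73 and 2.68 CPM against 1.32 and 2.00 CPM. In Snhg5 the smaller control library and in Snhg3 the smaller Klrg1Cre library was the highest of the 4. Snhg7 held 0.4996 and 0.824 CPM against 0.330 and 0.501 CPM, Snhg4 0.846 and 0.618 CPM against 0.599 and 0.657 CPM, and Snhg9 0.922 and 1.58 CPM against 1.32 and 1.19 CPM. For Snhg17, whose Klrg1Cre mean could not be resolved, the deposited means were 2.31 CPM in both groups.

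**Figure D3:**
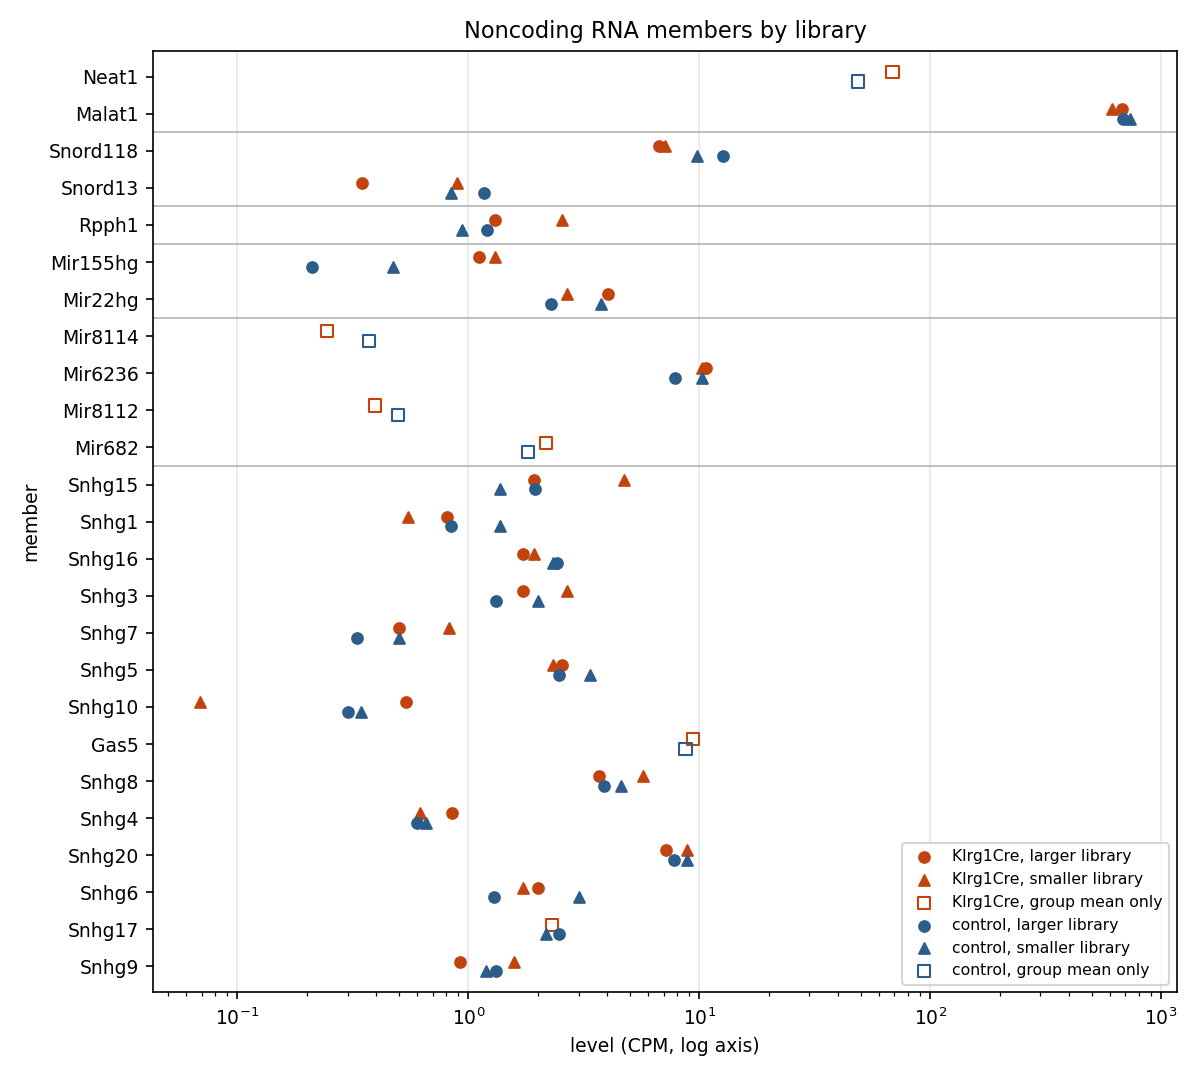
Level in CPM (log axis) of the 25 members other than Rn45s, Klrg1Cre in red and control in blue. Circles are the larger and triangles the smaller library of a group, open squares are group means that could not be resolved, and lines separate the classes. The groups are apart for 7 of the 19 resolved members (36.8%, against 37.6% of all resolved genes), Snord118 and Mir155hg among them. They interleave for most snoRNA host genes.

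Genes were read from 10 lists, of which 147 distinct genes were listed. The last list holds transcripts outside the rule, and the others hold genes that make, process, bind or degrade these RNAs. None of the 147 passed the authors' adjusted p of 0.05. At an unadjusted p below 0.05 there were 6 of the 147 (4.08%, against 7.09% of all genes), 4 higher and 2 lower. The list outside the rule supplied 1 of the higher and the 2 lower ones. The other higher ones were 2 genes whose products bind or assemble snoRNAs and 1 microRNA processing gene. RNA polymerase I and its factors, which transcribe the precursor, had 0 of 20 genes at that threshold and a median log2 ratio of 0.13, with Ubtf, a factor that keeps ribosomal genes open, at 35.4 and 33.3 CPM and Polr2e, a subunit shared by the RNA polymerases, at 33.4 and 27.5 CPM. The processing and nucleolar proteins had 0 of 30 and a median of 0.09, with Rrp1, a processing factor, at 61.9 and 57.5 CPM and Ncl, which encodes nucleolin, at 42.9 and 46.0 CPM. Neither of these lists thus gave a gene at that threshold to set beside the deposited ratio of Rn45s, which is no measure of the precursor alone.

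Of 15 snoRNP genes, whose products bind or assemble snoRNAs, 2 had higher means and 0 lower means with an unadjusted p below 0.05, where 3.72% and 3.37% of all genes did. Ruvbl2, an assembly ATPase, had 12.3 and 8.22 CPM (the authors' adjusted p = 0.612), and Znhit3, an assembly factor, 3.74 and 2.23 CPM (adjusted p = 0.684 in the authors' table). Nop56, a core protein of box C/D particles, was listed at 21.02 and 16.7 CPM, and Nop10, a core protein of box H/ACA particles, at 13.4 and 16.7 CPM. Of 13 microRNA processing genes, Tarbp2, a partner of Dicer, was the only one at that threshold (9.15 and 6.28 CPM, authors' adjusted p = 0.637), and Ago2, which carries the microRNA, had 27.2 and 30.2 CPM. Ran, whose product drives nuclear export of the hairpins, had 40.1 and 41.5 CPM.

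Protein genes of ribonucleases P and MRP (10 listed), the 7SK complex (7), telomerase (14), paraspeckles and nuclear speckles (14) and nonsense-mediated decay (14), the pathway that degrades many spliced snoRNA host transcripts, had 0 genes at an unadjusted p below 0.05. Their median log2 ratios ran from -0.02 for paraspeckles and speckles to 0.15 for ribonucleases P and MRP. The most abundant were Pop5 (16.5 and 11.97 CPM in Klrg1Cre and control) and Pop7 (9.22 and 7.81 CPM) of ribonucleases P and MRP, and the cyclin T genes Ccnt1 (14.3 and 13.8 CPM) and Ccnt2 (11.8 and 13.05 CPM) of the 7SK complex. On the telomerase list they were Acd (20.7 and 20.2 CPM) and Nop10, given above. The speckle proteins Srrm2 (153.2 and 156.3 CPM) and Son (113.1 and 114.5 CPM) led theirs, and Eif4a3 (29.7 and 22.8 CPM) and Smg5 (20.2 and 21.9 CPM) that of nonsense-mediated decay. A last list held 15 transcripts outside the rule, most of them long noncoding RNAs, with a median of 0.01. Among them Morrbid, a long noncoding RNA that restrains the gene of the pro-apoptotic protein Bim, had 5.17 and 9.24 CPM (the authors' p = 0.00521, adjusted p = 0.421). Ftx, from the X-inactivation centre, had 0.471 and 1.40 CPM (adjusted p = 0.610 in the authors' table), and Miat 0.877 and 0.274 CPM (adjusted p = 0.698). Lars2, a coding gene also on that list, was listed at 472.0 and 444.4 CPM, and 2900097C17Rik at 25.1 and 27.2 CPM.

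**Figure D4:**
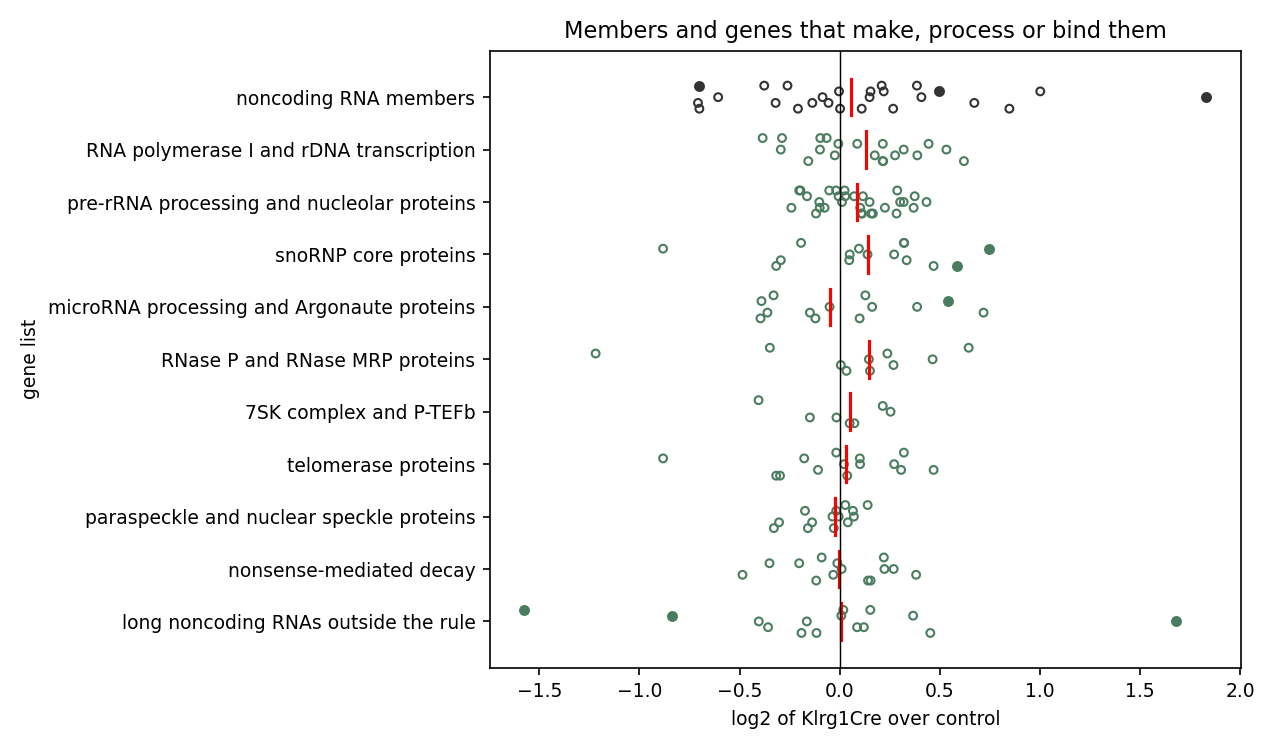
Log2 ratio of Klrg1Cre over control for the 26 members and for the genes of 10 lists, each point 1 gene, filled where the authors' unadjusted p was below 0.05, with the median of each list as a red line. All list medians lie between -0.05 and 0.15, and 3 of the members are filled.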

How the data were processed

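The submitters' processing notes name STAR, Partek and mouse build mm9; versions, annotation, strand and filters are not given in the sources used here. The deposited table holds group means in CPM, to which 0.0001 had been added. Its p-values and adjusted p-values are the authors'; the adjusted ones equalled a Benjamini-Hochberg adjustment in all 11883 rows. The deposited ratio and the signed fold score were the quotient of the means. The deposited signal column named total counts was 2 times their sum and was not used. Counts per sample had been planned for; means took their place, so calls are the authors'. Reads per library were worked out within 1e-09 reads (5351 genes in both groups, tested on simulated data). For Rn45s the limit was 1e-08, and where several splits remained the one holding 2 to the power 24 was taken. As a check, limma 3.58.1 (R 4.3.3, trended variance) was run on log2(CPM + 1) of the resolved genes; on log2(CPM + 0.0001) with Rn45s, its p and the authors' p had a rank correlation (Spearman) of 0.9997 across genes, which are not independent replicates, and gave Rn45s p = 0.633. Poisson and binomial intervals cover counting error only. Members and lists were chosen with earlier results of these data known. Named were Rn45s and the other symbols of the rule, members at an unadjusted p below 0.05, those with the highest means or largest ratios, and of each list the genes at that threshold and the 2 most abundant; further members were added to account for all 26. Coordinates refer to GRCm38 and were used only for sequences and overlaps. Some items are not reported here.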

Additional observations from a re-analysis of the deposited data

How the results depend on the processing

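No member passed an adjusted p of 0.05 with the adjustment limited to genes of at least 1 CPM. The same held with limma on log2(CPM + 1) or log2(CPM + 0.0001), and with limma scaled to the resolved genes other than Rn45s. Fits without 1 library assume that the lone library left in a group varies like the other group's. With limma scaled to the reads outside Rn45s 4 members passed, all higher in Klrg1Cre, where 28.2% of all resolved genes passed; this scaling, added after seeing the data, rests on the Rn45s entries read as limits. At an unadjusted p below 0.05 the count of members with higher means was 2, and 1 over members of at least 1 CPM. The count was also 1 in each of the limma fits on log2(CPM + 1), on log2(CPM + 0.0001) and scaled to the resolved genes. These fits had no value for Neat1. It was 7 with the scaling outside Rn45s, and 0 to 3 when single libraries were left out. The count with lower means was 1 and became 0 with the scaling outside Rn45s. The median log2 ratio of the members was 0.06, became 0.62 with the scaling outside Rn45s, and ranged from -0.15 to 0.28 over the resolved members without single libraries. For Rn45s the log2 ratio of 0.39 became 0.95 when scaled to the reads outside it, ranged from 0.33 to 0.44 without single libraries, and from -0.29 to 0.56 between its limits. The sign of the log2 ratio changed without 1 library for 7 of 19 resolved members. No paired analysis was possible because the sample titles carry the numbers 1 and 2 but no library could be tied to a number. Tests on counts with other size factors were not run, since whole reads were resolved for only 45.0% of genes.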
